A study of Mus musculus with 4 samples.

Results

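The macrophage lineage transcription factors described here are 9 genes that establish or tune myeloid identity, namely *Spi1*, *Runx1*, *Cebpa*, *Cebpb*, *Cebpd*, *Irf4*, *Irf5*, *Irf8* and *Maf*. They were chosen by gene name from a table of 55356 genes, and all 9 were found and had a mean normalized count of at least 10. The table holds 4 RNA sequencing libraries, 1 for each condition, from immortalized macrophages of mice lacking the kinase MK2, which is encoded by *Mapkapk2*. In 1 line the cells were virally transduced with an empty vector carrying *GFP* (i*MK2*-KO +*GFP*, the control line), and in the other with a vector carrying *MK2* (i*MK2*-KO +*MK2*, the rescued line), which the sample labels call wt although these are *MK2*-KO cells too. Each line was left untreated (UT) or received recombinant murine IL-1α at 5 ng/mL for 1 h. All 4 conditions therefore share the *MK2* knockout, the immortalization and the viral vector, both lines were sorted by their GFP signal, and whether a line is 1 clone is not given in the sources used here. With 1 library per condition there is no spread between cultures and no test, and any difference between the lines may belong to the pair of cell lines rather than to MK2, which cannot be told apart here.

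Macrophage identity rests on a small set of DNA-binding proteins that act together. PU.1, the product of *Spi1*, opens macrophage enhancers, RUNX1 acts before and beside it in blood progenitors, and the C/EBP, IRF and MAF proteins then set the myeloid branch and the state of the mature cell. C/EBPα and c-MAF are associated with differentiation and with leaving the cell cycle, whereas C/EBPβ and C/EBPδ are known as factors whose expression inflammatory signals raise.

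Promoter sequences are shown for 3 members that stand for the kinds of pattern found below. *Cebpa* differed in level between the lines, with close values before and after IL-1α but few counts in the control line. *Cebpb* was higher after IL-1α in the control line, and *Irf4* was higher in the control line. Each sequence is the 250 bases before the RefSeq transcription start in GRCm38.p6, on the forward strand. *Cebpa* is shown from chr7:35119043-35119292, *Cebpb* from chr2:167688665-167688914 and *Irf4* from chr13:30748983-30749232. Capitals mark matches, on either strand, to the TATA box letters TATAAA or to the NF-κB-like letters GGGA and CC with any 4 bases between them, and these matches do not overlap in the windows shown.
Cebpa: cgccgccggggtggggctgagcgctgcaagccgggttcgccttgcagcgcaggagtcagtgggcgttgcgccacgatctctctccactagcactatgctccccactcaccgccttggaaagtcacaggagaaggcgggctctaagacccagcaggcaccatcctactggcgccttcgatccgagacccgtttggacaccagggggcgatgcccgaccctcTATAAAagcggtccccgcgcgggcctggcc
Cebpb: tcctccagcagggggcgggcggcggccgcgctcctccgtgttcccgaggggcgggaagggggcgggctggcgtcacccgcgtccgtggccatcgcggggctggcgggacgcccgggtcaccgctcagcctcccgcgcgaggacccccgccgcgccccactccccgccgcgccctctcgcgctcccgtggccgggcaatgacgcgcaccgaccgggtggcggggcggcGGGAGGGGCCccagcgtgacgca
Irf4: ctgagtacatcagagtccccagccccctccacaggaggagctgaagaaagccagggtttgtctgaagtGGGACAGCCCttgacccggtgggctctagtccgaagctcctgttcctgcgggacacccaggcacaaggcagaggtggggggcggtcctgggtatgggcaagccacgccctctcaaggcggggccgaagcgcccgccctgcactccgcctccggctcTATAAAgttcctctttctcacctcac

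Of the 9 members, 6 had a window in the RefSeq table, with 8 windows in all, while *Spi1*, *Cebpd* and *Maf* had none there. The TATA box letters stood at -30 to -25 from the start in *Cebpa* and at -26 to -21 in *Irf4*, and they occur in 12.4% of all 32851 windows of this length. The NF-κB-like letters stood at -23 to -14 in *Cebpb* and at -182 to -173 in *Irf4*, and 17.6% of all windows hold them. The first window of *Irf8* held both, with the NF-κB-like letters at -58 to -49 and the TATA box letters at -31 to -26. The C/EBP-like letters TTGCNNAA, present in 9.56% of all windows, were in none of the 8 windows of the members. The *Cebpb* window was 81.6% G and C, against 66.4% in *Cebpa* and 63.6% in *Irf4*. These are descriptions of letters in short windows and say nothing of whether a factor binds there.

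The normalized counts summed to between 24891906 and 25733071 per library, and between 17840 and 18152 genes had a value above 0. Gene positions are given as deposited, and they do not match GRCm38, the build that the labels name and that the promoter windows use. *Mapkapk2* was at 561 and 1585 normalized counts in untreated and treated cells of the control line and at 38357 and 38141 in the rescued line, in the direction the labels of the lines give, with reads from the vector and from the gene counted together. In the rescued line *Gapdh* was at 38926 and 38970. No library comes from cells with an unaltered *Mapkapk2* gene, so how this level compares with a native one was not tested. All 12 macrophage markers examined, among them *Csf1r*, *Cd68* and *Lyz2*, were present, with sums of 132852 and 146947 in the control line and of 128834 and 132220 in the rescued line. *Lyz2* made up much of these sums. In untreated cells 5 markers were higher and 5 lower beyond counting error, as defined below, against 30.8% and 26.9% of all genes with a mean of at least 10. Abundant genes such as these pass counting error with small differences. The markers that differed included *Mpeg1* (3305 against 1560) and *Mertk* (421 against 1093). The 11 granulocyte markers summed to 540 and 574 against 135 and 121, most of it *Mmp8* (530 and 563 against 115 and 107). *Mpo*, *Ly6g*, *S100a9* and 3 others were at 0 in all libraries. At low counts *S100a8* (6 and 5 against 2 and 0) lay the same way as *Mmp8*. *Prtn3* (1 and 4 against 14 and 9) and *Elane* (2 and 2 against 4 and 5) lay the other way, and *Ngp* reached at most 1. The 8 dendritic cell markers summed to 79 and 57 against 124 and 130, with *Flt3*, *Siglech*, *Ccr9* and *Cd209a* at 0. Of these, *Itgax* was higher in the control line (53 and 36 against 18 and 13) and *Zbtb46* lower (23 and 18 against 104 and 115). B cell markers summed to at most 3, T and NK cell markers to between 1 and 24, mast cell and erythroid markers to between 2 and 12, and the 6 fibroblast markers were at 0. A value of 0 allows up to 3 counts. The part of these other markers in the differences between the lines was not tested, and in these bulk samples fewer cells of a type and less RNA per cell cannot be told apart.

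Levels were compared between genes per kilobase of annotated exon, and *Spi1*, *Cebpb* and *Irf5* were the highest of the 9 in every library. In untreated cells of the rescued line the normalized counts per kilobase were 1689 for *Spi1*, 1082 for *Cebpb* and 828 for *Irf5*. *Maf* (188), *Cebpa* (164) and *Irf8* (155) followed, and the counting intervals of neighbours in this trio overlapped. *Runx1* (68.3), *Cebpd* (49.1) and *Irf4* (8.77) were the lowest in this library. In untreated cells of the control line the first 4 places went to *Spi1* (1774), *Cebpb* (1182), *Irf5* (768) and *Irf8* (147), in normalized counts per kilobase. *Runx1* (94.8), *Cebpd* (40.8) and *Irf4* (23.7) came next, and *Cebpa* (7.21) and *Maf* (4.13) were last, with overlapping intervals. Among the members, then, the order of the 2 lines differed chiefly in the places of *Maf* and *Cebpa*. After IL-1α the order stayed as it was in the control line. In treated cells of the rescued line *Maf* (157.5), *Cebpa* (157.4) and *Irf8* (142.6) again had overlapping intervals with their neighbours. Exon length here joins all annotated transcripts of a gene, 12025 bases for *Runx1* and 1504 for *Cebpb*, so genes with long or unused exons may be placed too low.

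**Figure D1:**
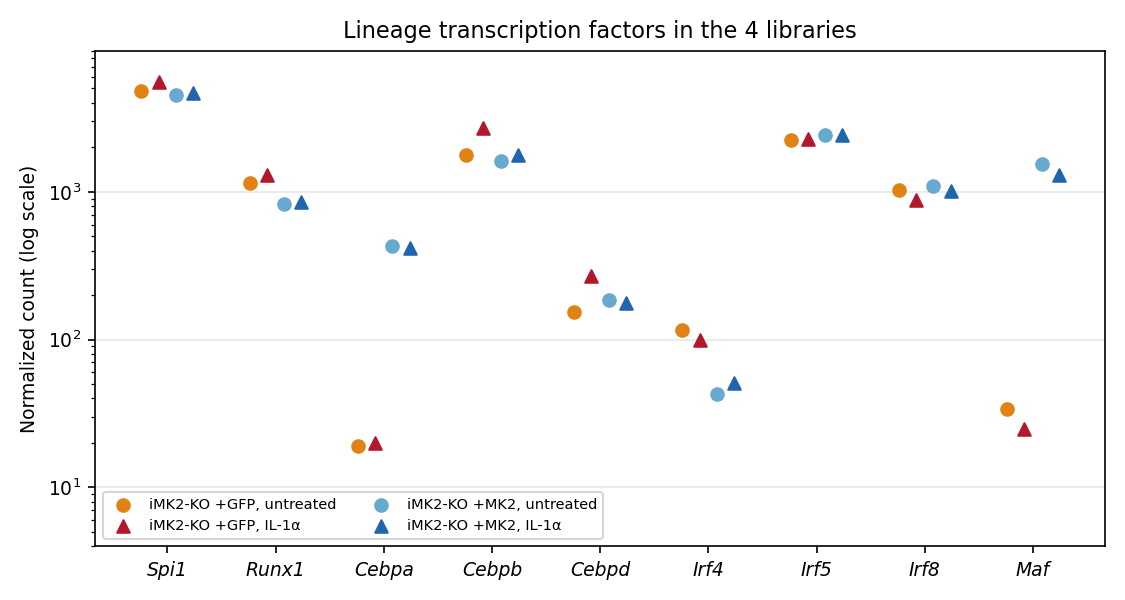
Normalized counts of the 9 transcription factors (log scale) in the 4 libraries, with circles for untreated and triangles for IL-1α-treated cells, orange and red for the control line and light and dark blue for the rescued line. *Maf* and *Cebpa* lie between 19 and 34 in the control line and between 415 and 1546 in the rescued line, whereas the 4 values of *Spi1*, *Irf5* and *Irf8* lie close together.

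The first comparison asked how the line with the empty vector differs from the line with the *MK2* vector. The largest differences among the members were lower *Maf* and *Cebpa* in the control line, and *Irf4* was higher there. *Spi1*, *Cebpb*, *Irf5* and *Irf8* differed by less than 1.1-fold in untreated cells. Ratios are given as log2 of the control line over the rescued line after adding 1 to each value, with the 95% exact Clopper-Pearson interval that counting alone gives when 1 unit of value is taken as 1 read. A ratio is called beyond counting error where this interval leaves out 0, which says nothing of the spread between cultures. Among untreated cells, 4 of the 9 members were higher and 3 lower beyond counting error, against 30.8% and 26.9% of the 12483 genes with a mean of at least 10. At least 2-fold differences were found for 1 member that was higher (3.51% of all these genes) and 2 that were lower (5.26%). Both of the latter were also at least 8-fold lower, a limit chosen after the values were seen, which held for 1.36% of genes. The median log2 ratio was -0.08 over the members and 0.02 over all genes.

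In IL-1α-treated cells 5 members were higher and 4 lower beyond counting error, against 33.7% and 26.3% of genes. None was at least 2-fold higher (4.16% of genes), and the 2 that were at least 2-fold lower (5.57%) were again *Maf* and *Cebpa*, both at least 8-fold lower (1.39%). The median log2 ratio was 0.24 over the members and 0.03 over all genes. Whether a gene is beyond counting error depends on its abundance, so these counts are not read further, and both large differences belonged to 2 of the 9 members.

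**Figure D2:**
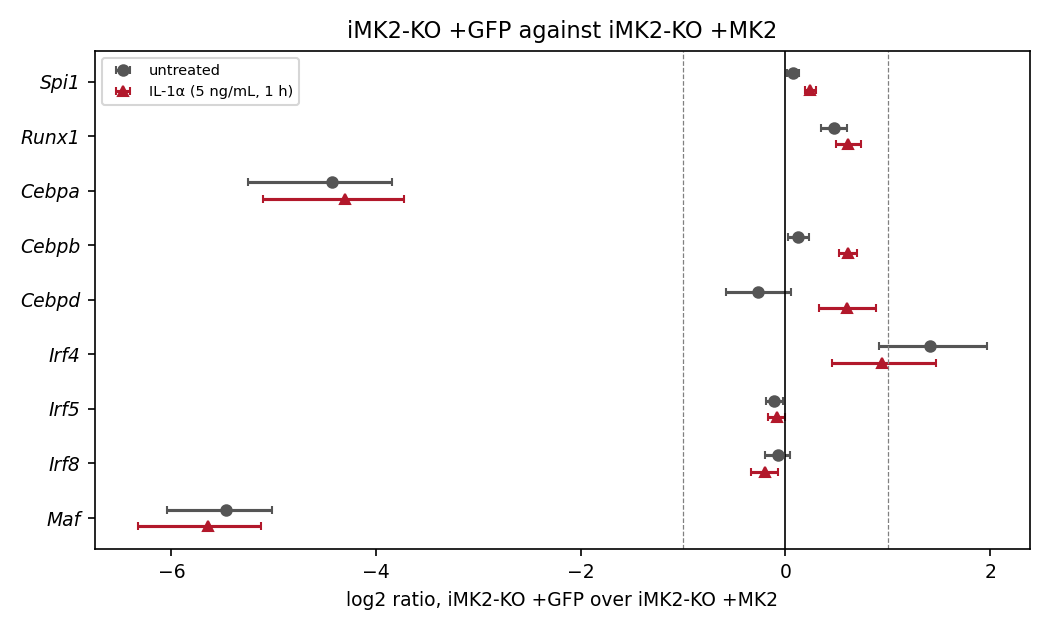
Log2 ratio of the control line over the rescued line for each member in untreated (grey circles) and IL-1α-treated (red triangles) cells, with 95% counting intervals as bars and dashed lines at 2-fold. *Maf* (-5.47 and -5.64) and *Cebpa* (-4.43 and -4.31) lie far to the left, and *Irf4* (1.41 and 0.94) lies to the right.

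*Maf* (ENSMUSG00000055435, chromosome 8, 116409681 to 116434533, reverse strand) encodes c-MAF, a bZIP factor known in macrophages for restraining self-renewal and for driving genes of the tissue-resident state. It was at 34 normalized counts in untreated cells of the control line and at 25 after IL-1α, and at 1546 and 1298 in the rescued line. Both libraries of the first line were low and both of the second high. The log2 ratio was -5.47 (-6.04 to -5.02) in untreated and -5.64 (-6.33 to -5.13) in IL-1α-treated cells, which in untreated cells is 44.2-fold lower with the added count. Ranked from the lowest ratio, *Maf* stood at place 65 of the 12483 genes in untreated cells and at place 51 after IL-1α.

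Other MAF family genes that are described here differed less in untreated cells. The small MAF proteins, which lack a transactivation domain and partner other bZIP factors, lay near 0 for *Mafg* (-0.11) and *Mafk* (0.15) in untreated cells. *Maff* was at 26, 318, 40 and 54 normalized counts in UT and treated cells of the control line and then of the rescued line, so that only the treated control library was high. *Mafa* was at no more than 1 and *Nrl* at 0.

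Genes described as driven by c-MAF in macrophages were for the most part lower in the control line. Of 10 such genes 8 had a mean of at least 10, and in untreated cells 7 of these lay lower and 1 lay higher beyond counting error, 5 were at least 2-fold lower and 1 at least 2-fold higher, and their median log2 ratio was -1.87, beside 0.02 over all genes. After IL-1α the numbers were 7 and 0, with a median of -1.40. Over all genes 26.9% lay lower and 30.8% higher beyond counting error in untreated cells, and 26.3% and 33.7% after IL-1α. At 2-fold the untreated shares were 5.26% and 3.51%. *Folr2*, a folate receptor, was at 4 and 4 normalized counts in the control line and at 32 and 18 in the rescued line. *Folr2* and *F13a1* reached the mean of 10 only through the line where they were high and so had to differ, and without them 6 were lower and 0 higher in untreated cells, with the median still at -1.87. *Gas6*, a bridging ligand for the uptake of dying cells, was at 873 and 762 normalized counts in untreated and treated cells of the control line and at 5284 and 5382 in the rescued line, a log2 ratio of -2.60 (-2.70 to -2.49) in untreated cells. *Mrc1*, which encodes the mannose receptor, was at 273 and 282 against 1499 and 1488 normalized counts, a log2 ratio of -2.45 (-2.65 to -2.27). *C1qa*, *C1qb* and *C1qc*, the chains of complement C1q, had log2 ratios of -1.95, -0.99 and -1.80. The exception was *F13a1*, a coagulation factor subunit, at 25 and 12 against 1 and 4 normalized counts. *Cd163*, a scavenger receptor, was at 0 in all libraries. This list was chosen with earlier results of these data known, and *Gas6*, *Mrc1*, the C1q genes and *F13a1* were named after their values were seen. c-MAF protein is not in these data, and its part in the differences of these genes was not tested.

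**Figure D3:**
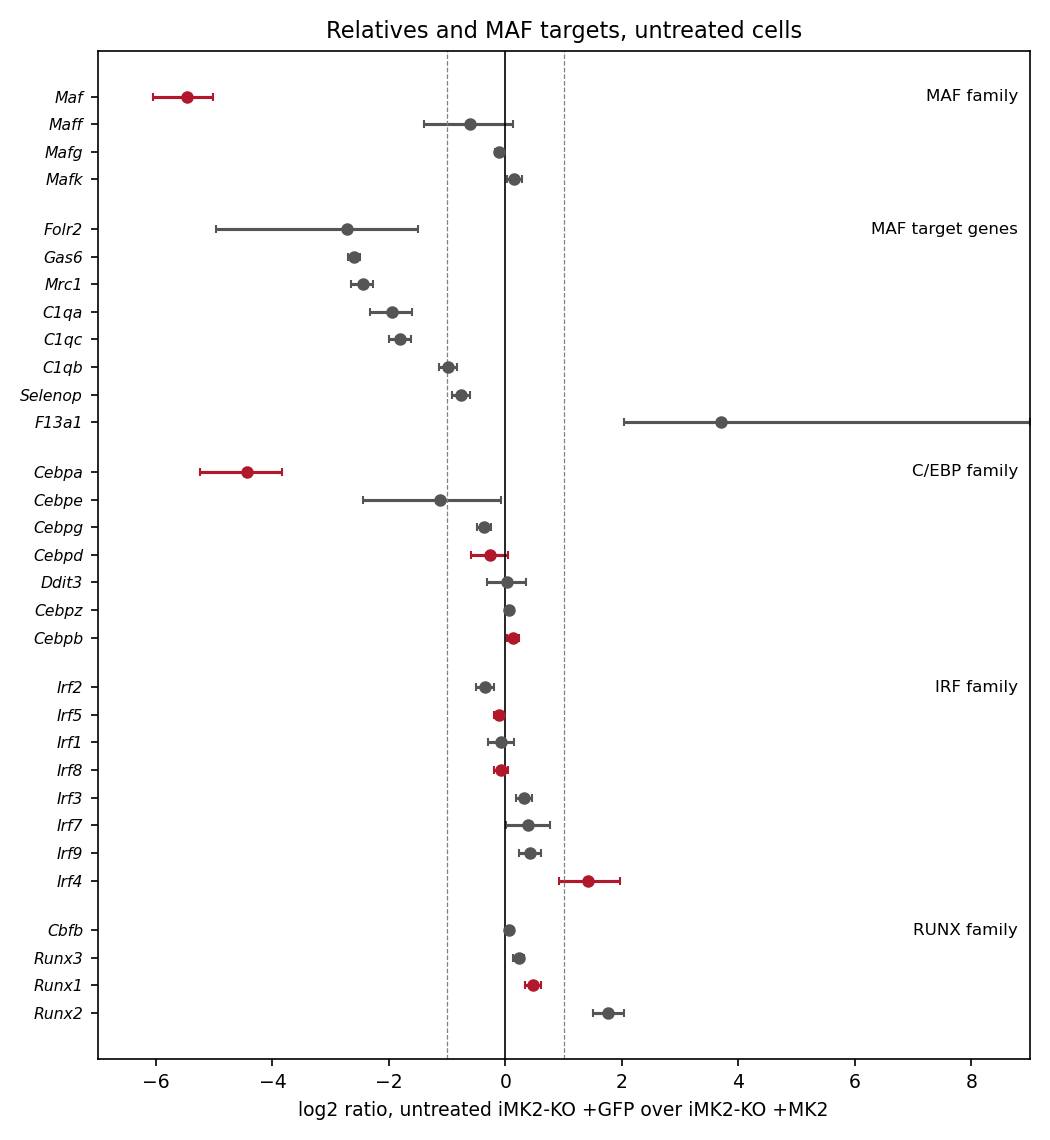
Log2 ratio of the untreated control line over the rescued line for relatives of the members and for MAF target genes with a mean of at least 10, with members in red, 95% counting intervals as bars and dashed lines at 2-fold. *Maf* and *Cebpa* lie far below the relatives shown, *Irf4* and *Runx2* lie above theirs, and the interval of *F13a1* runs past the right edge of the plot.

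*Cebpa* (ENSMUSG00000034957, chromosome 7, 34818718 to 34821353, forward strand), annotated as 1 exon, encodes C/EBPα, which commits progenitors to the granulocyte and macrophage branch. It was at 19 and 20 normalized counts in untreated and treated cells of the control line and at 431 and 415 in the rescued line. Its values thus differed between the lines and hardly within them, although so few counts in the control line could hide a change after IL-1α. The log2 ratio was -4.43 (-5.25 to -3.84) in untreated and -4.31 (-5.10 to -3.73) in IL-1α-treated cells, 21.6-fold and 19.8-fold lower, at places 101 and 98 from the lowest. Its sequence above carries a TATA box match and no NF-κB-like match.

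*Cebpb* (ENSMUSG00000056501, chromosome 2, 167530835 to 167532338), which encodes the C/EBP protein of activated macrophages, was at 1777 and 2713 normalized counts in the control line and at 1627 and 1776 in the rescued line, untreated and after IL-1α. Of these values 3 lay within a narrow band and the treated control library stood above it. The log2 ratio of the lines was 0.13 (0.03 to 0.23) in untreated cells, a call lost with equal *Gapdh* or 0.5 reads per unit, and 0.61 (0.52 to 0.70) after IL-1α. *Cebpd* (ENSMUSG00000071637, chromosome 16, 15705150 to 15708895), encoding C/EBPδ, an early partner of C/EBPβ in the acute phase response, was at 153 and 269 against 184 and 177 normalized counts. The same library was again the highest, and the ratio was -0.26 (-0.59 to 0.05) in untreated and 0.60 (0.32 to 0.89) in IL-1α-treated cells. Among the other C/EBP family genes *Cebpg*, a short family member without a transactivation domain, was lower in the control line (log2 ratio -0.37, -0.49 to -0.25, untreated). *Cebpe*, of late granulocytes, was at 10 to 23 normalized counts. Over the 7 genes of the family, members included, 1 was higher and 3 were lower beyond counting error in untreated cells. The shares over all genes were 30.8% and 26.9%.

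*Irf4* (ENSMUSG00000021356, chromosome 13, 30933209 to 30950959), which encodes a lymphoid and myeloid IRF known in macrophages for alternative activation, was the member most above the rescued line. It was at 116 and 99 normalized counts in the control line and at 43 and 51 in the rescued line, untreated and treated. All of these values were low. The log2 ratio was 1.41 (0.92 to 1.97) in untreated cells and 0.94 (0.46 to 1.47) after IL-1α, 2.66-fold and 1.92-fold higher. Its sequence above carries both an NF-κB-like and a TATA box match. Of 7 genes known to depend on IRF4 in alternatively activated macrophages, 5 were at 0 in all libraries, among them *Chil3* and *Retnla*, *Arg1* reached at most 3, and *Mrc1*, described above, was lower.

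*Irf5* and *Irf8* lay close together in both lines. *Irf5* (ENSMUSG00000029771, chromosome 6, 29526624 to 29541870), an IRF of Toll-like receptor signalling, was at 2231 and 2282 normalized counts in the control line and at 2404 and 2425 in the rescued line. The values of the control line were the lower ones by a small margin, with a log2 ratio of -0.11 (-0.19 to -0.02) in untreated and -0.09 (-0.17 to -0.0046) in IL-1α-treated cells, and both calls were lost with 0.5 reads per unit. *Irf8* (ENSMUSG00000041515, chromosome 8, 121463097 to 121483433), which directs monocyte development as a partner of PU.1, was at 1036 and 874 against 1092 and 1006 normalized counts. Its log2 ratio was -0.08 (-0.20 to 0.05) and -0.20 (-0.34 to -0.07). It was beyond counting error after IL-1α, and in untreated cells when scaled to equal *Gapdh* (-0.13). Of the other IRF genes in untreated cells, *Irf3* (0.32), *Irf7* (0.38) and *Irf9* (0.42) were higher and *Irf2* (-0.35) lower beyond counting error on the log2 scale. *Irf1* (-0.08) lay within it.

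Target genes of IRF8 and IRF5 differed both ways. Of 12 such genes 8 had a mean of at least 10, with 3 higher and 3 lower beyond counting error in untreated cells and a median log2 ratio of 0.04, beside 0.02 over all genes. After IL-1α 6 were higher and 1 lower, with a median of 1.68, beside 0.03. Without *Ciita* and *Nos2*, which reached the mean of 10 only through libraries of the control line, the counts were 2 and 3 in untreated cells and 4 and 1 after IL-1α, and the medians -0.27 and 0.85. The shares beyond counting error over all genes were 30.8% higher and 26.9% lower in untreated cells, and 33.7% and 26.3% after IL-1α. *Ciita*, the master regulator of MHC class II genes, was at 30 and 36 normalized counts in the control line and at 4 and 1 in the rescued line, and *Cd74*, the class II invariant chain, was at 6809 and 8187 against 2753 and 3047. Both were thus higher in the first line, in both states. *Tnf*, an inflammatory cytokine, was at 332 and 10784 normalized counts against 315 and 608, and only the treated control library was far above the others.

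*Spi1* (ENSMUSG00000002111, chromosome 2, 90912735 to 90946101) was at 4782 and 5524 normalized counts in untreated and treated cells of the control line and at 4551 and 4663 in the rescued line. Only the treated control library stood off from the others. The log2 ratio was 0.07 (0.01 to 0.13) in untreated cells, where its call was lost with other scalings or fewer reads per unit, and 0.24 (0.19 to 0.30) after IL-1α. Its relatives *Spib* and *Spic*, of B cells and of red pulp macrophages, were at 0 and at no more than 2. *Runx1* (ENSMUSG00000022952, chromosome 16, 92398354 to 92623037) was at 1140 and 1300 normalized counts against 821 and 849. Its log2 ratio was 0.47 (0.34 to 0.60) in untreated and 0.61 (0.49 to 0.74) in IL-1α-treated cells. Its relative *Runx2*, best known from bone, was at 542 and 444 against 159 and 235 normalized counts, a log2 ratio of 1.76 (1.51 to 2.03) in untreated cells. *Runx3* (0.23) and the shared partner *Cbfb* (0.07) differed less in untreated cells on the log2 scale.

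All 24 target genes of PU.1 that were examined had a mean of at least 10. In untreated cells 13 were higher and 6 lower beyond counting error in the control line, 2 were at least 2-fold higher and 0 at least 2-fold lower, and the median log2 ratio was 0.21, beside 0.02 over all genes. Over all genes the shares were 30.8% and 26.9%, and 3.51% and 5.26% at 2-fold, so the number lower was near the background, and abundant genes such as these pass counting error with small differences. *Cybb*, the catalytic subunit of the phagocyte oxidase, was at 20036 and 31373 normalized counts against 5380 and 5385, and *Adgre1*, which encodes F4/80, at 3978 and 4140 against 6832 and 6330. *Cybb* and *Adgre1* differed in opposite directions, and *Spi1* RNA varied by no more than 1.21-fold over the 4 libraries. PU.1 protein is not in these data, and its part in the differences of its targets was not tested. Among 32 other myeloid and blood transcription factors, 25 had a mean of at least 10, and in untreated cells 8 were higher and 9 lower beyond counting error, with a median log2 ratio of 0.00. *Rxra*, the retinoid X receptor, was the lowest of these, at 535 and 528 normalized counts against 3334 and 3259. *Pparg*, its nuclear receptor partner, was at 198 and 203 against 96 and 75 and thus on the other side. *Gata6* and *Myb* were at 0.

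**Figure D4:**
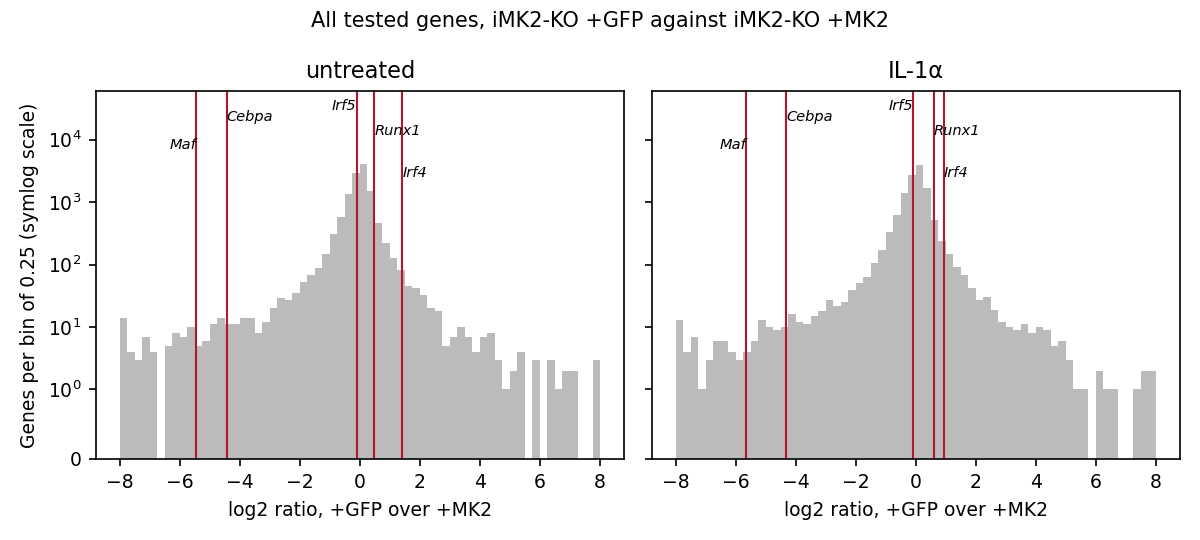
Number of genes per bin of 0.25 in the log2 ratio of the control line over the rescued line (symmetric log scale), for the 12483 genes with a mean of at least 10, untreated (left) and after IL-1α (right), with red lines at 5 members and genes beyond 8 in either direction placed in the outer bins. *Maf* and *Cebpa* lie in the thin lower tail, *Irf4* and *Runx1* on the upper shoulder, and *Irf5* in the central peak.

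The second comparison asked what IL-1α changed within each line. In the control line *Cebpb* and *Cebpd* were higher after 1 h and *Spi1* and *Runx1* slightly so, and *Irf8* was lower. In the rescued line *Cebpb* was slightly higher and *Maf* lower, and the other 7 members lay within counting error. These comparisons share their libraries with those of the lines and are no independent evidence beside them. In the control line 4 of 9 members were higher with IL-1α and 1 was lower, beyond counting error, against 20.0% and 12.3% of genes. No member was at least 2-fold higher (2.25% of genes) or lower (1.59%), and the median log2 ratio was 0.07 over the members and 0.01 over all genes. In the rescued line 1 member was higher and 1 lower beyond counting error, against 11.4% and 8.23% of genes. None was at least 2-fold higher (0.889%) or lower (1.03%), and both medians were 0.01.

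*Cebpd* had the largest response, from 153 to 269 normalized counts in the control line, a log2 ratio of IL-1α over untreated of 0.81 (0.52 to 1.11), or 1.75-fold. In the rescued line it went from 184 to 177, a log2 ratio of -0.06 (-0.36 to 0.25). *Cebpb* went from 1777 to 2713 normalized counts in the control line, a log2 ratio of 0.61 (0.52 to 0.70), or 1.53-fold, and from 1627 to 1776 in the rescued line, a log2 ratio of 0.13 (0.03 to 0.22). The *Cebpb* sequence above carries an NF-κB-like match and no TATA box match, and none was given for *Cebpd*. *Irf4* and *Irf8* hold an NF-κB-like match too, with log2 ratios of IL-1α over untreated of -0.23 and -0.25 in the control line. A link between these letters and the responses was not tested. Among the 12483 genes *Cebpd* and *Cebpb* stood at places 364 and 539 from the highest response in the control line. The difference between the responses of the lines was 0.87 (0.45 to 1.28) for *Cebpd* and 0.48 (0.35 to 0.61) for *Cebpb* on the log2 scale, with intervals for counting error alone. That the lines differ in response could not be tested with 1 library per condition.

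The remaining responses were smaller. *Spi1* had a log2 ratio of 0.21 (0.15 to 0.26) in the control line and 0.04 (-0.02 to 0.09) in the rescued line, and *Runx1* 0.19 (0.07 to 0.31) and 0.05 (-0.09 to 0.19). *Irf8* was lower after IL-1α in the control line (-0.25, -0.38 to -0.11), with -0.12 (-0.24 to 0.0066) in the rescued line. *Maf* was lower in the rescued line (-0.25, -0.36 to -0.14), and in the control line its few counts gave -0.43 (-1.25 to 0.34), so a difference of the same size was not detectable there. *Irf5* was at 0.03 (-0.05 to 0.12) and 0.01 (-0.07 to 0.09), so responses up to 0.12 lay within counting error, and the sign in the control line turned when libraries were scaled to equal totals or equal *Gapdh*. *Irf4* (-0.23, -0.63 to 0.17, and 0.24, -0.37 to 0.87) and *Cebpa* (0.07, -0.91 to 1.06, and -0.05, -0.25 to 0.14) had too few counts in at least 1 line to show a change of this size. For *Spi1* the difference between the responses was 0.17 (0.09 to 0.25), and for the 6 members other than *Spi1*, *Cebpb* and *Cebpd* its interval held 0.

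**Figure D5:**
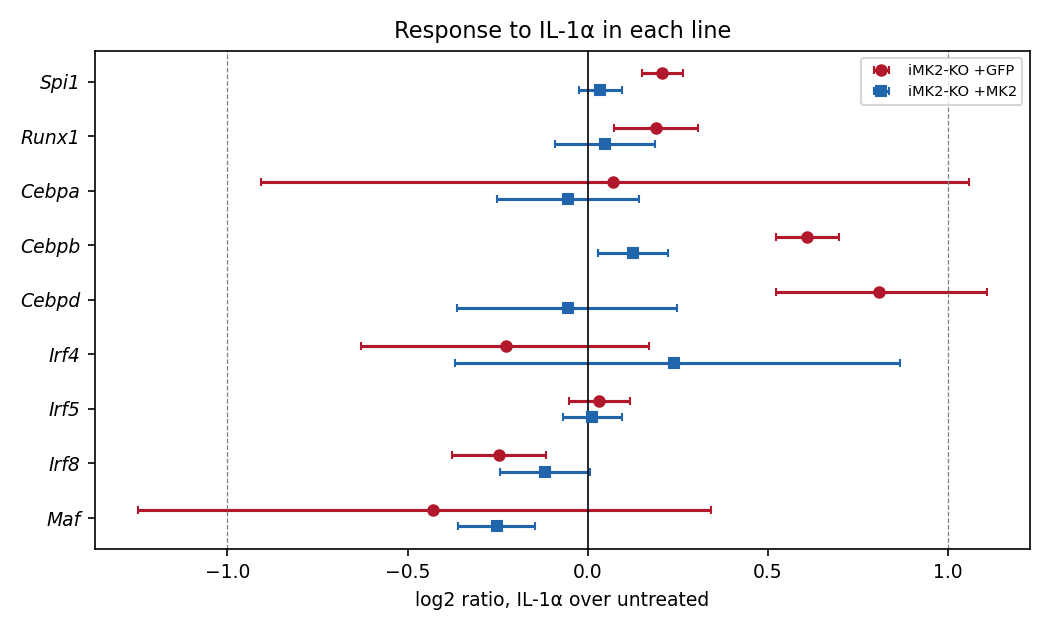
Log2 ratio of IL-1α over untreated cells for each member in the control line (red circles) and the rescued line (blue squares), with 95% counting intervals as bars and dashed lines at 2-fold. *Cebpd* (0.81) and *Cebpb* (0.61) lie to the right in the control line, and most other intervals hold 0 or lie close to it.

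Some relatives outside the 9 members responded more. *Irf1*, an IRF that inflammatory signals induce, was at 324 and 1885 normalized counts in untreated and treated cells of the control line, a log2 ratio of 2.54 (2.37 to 2.72), and at 343 and 338 in the rescued line (-0.02, -0.24 to 0.20). *Maff* had a ratio of 3.56 (3.03 to 4.25) in the first line and 0.42 (-0.18 to 1.06) in the second. *Irf1* and *Maff* thus were higher beyond counting error in the control line and not in the rescued line. Among the other myeloid factors, *Ets2* had 1.36 (1.29 to 1.44) in the control line and 0.25 (0.15 to 0.34) in the rescued line, and *Tfec*, a relative of MITF in macrophages, 1.22 (1.06 to 1.37) and -0.04 (-0.24 to 0.15). *Bhlhe41*, a repressor linked to macrophage self-renewal, was lower after IL-1α in the control line (-0.67, -0.75 to -0.60) and higher in the rescued line (0.13, 0.06 to 0.19).

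Genes that C/EBP proteins are known to drive were mostly higher after IL-1α in the control line. Of 12 such genes 9 had a mean of at least 10, and beyond counting error 8 of these lay higher and 0 lay lower, 6 at least 2-fold, with a median log2 ratio of 1.14, beside 0.01 over all genes. *Nos2* (3, 38, 3 and 3 normalized counts) reached the mean of 10 only through the treated control library and so had to differ, and without it 7 lay higher, 5 at least 2-fold, with a median of 1.09. In the rescued line 4 were higher and 0 lower, 1 at least 2-fold, with a median of 0.08. Over all genes 20.0% were higher and 12.3% lower in the control line, and 2.25% at least 2-fold higher. The same shares in the rescued line were 11.4%, 8.23% and 0.889%. *Saa3*, an acute phase protein, was at 25 and 1180 normalized counts in untreated and treated cells of the control line and at 9 and 17 in the rescued line. *Il1b*, which encodes IL-1β, was at 47 and 2007 against 15 and 52. Of the 24 PU.1 targets 12 lay higher with IL-1α and 3 lay lower in the control line, beyond counting error, with a median of 0.05, against 20.0% and 12.3% of all genes. In the rescued line the numbers were 4 and 3, with a median of 0.02, against 11.4% and 8.23%, which is near the background. For the 8 IRF8 and IRF5 targets they were 5 and 0 in the control line, with a median of 0.47, and 3 and 0 in the rescued line, with a median of 0.04. Without *Nos2* the control line had 4 and 0, with a median of 0.27, and the rescued line 3 and 0, with 0.08. The shares over all genes are those given for the PU.1 targets. Of the C/EBP targets *Cd14*, *Csf3r* and *Lyz2* also stand in the list of PU.1 targets. *Ccl5*, *Nos2* and *Il6* stand in that of IRF8 and IRF5 targets, so these lists are not separate sets. NF-κB is known to drive several of the C/EBP targets too. Between untreated lines, 4 C/EBP targets exceeded counting error upward in the control line and 2 downward, with a median log2 ratio of 0.31. After IL-1α the split was 7 and 0 (median 1.84), or 6 and 2 with equal *Gapdh*. Without *Nos2* the splits were 4 and 2 (0.33), then 6 and 0 (1.59). The all-gene shares were 30.8% and 26.9%, then 33.7% and 26.3%. As a set these targets were not lower in the control line, where *Cebpa* was. The part of C/EBP proteins was not tested.

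The genes whose pattern over the 4 libraries was most like that of a member were sought among the 10576 genes whose mean was 50 or more, for the 3 members whose values spanned at least 2-fold. Likeness is the largest difference between profiles of log2 values, each centred on its mean, over 4 libraries, so it describes the shape of a pattern only. Closest to *Cebpa* was *Ckap4*, a membrane protein of the endoplasmic reticulum, with 108 and 106 normalized counts in the control line and 2083 and 2023 in the rescued line and a largest difference of 0.11. *Adam3* (0.16) and *Cacna1a* (0.19) followed. Closest to *Irf4* were *Jcad*, *Cysltr1* and *Tusc1*, with largest differences of 0.08 to 0.09. *Maf* had looser neighbours in *Dab2ip* (0.25), *Mapk11* (0.32) and *Emb* (0.37), and *Mapk11*, which encodes p38β, was at 5 and 3 against 172 and 166 normalized counts.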

How the data were processed

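Total RNA of 4 conditions was sequenced as 1 library each, at an estimated 25200000 clusters per library per the labels. The labels describe poly(A) selection and reads of 38 bases. The methods of the study describe ribo-depletion and single reads of a greater length, so these sources differ on both points. The authors deposited 1 table of gene scores, which are counts normalized with DESeq2 and rounded. These normalized counts were used as deposited, and no count model was applied. The labels name GRCm38, but the start positions in the table differ from those of GRCm38 genes, so gene positions are printed as deposited, with the build unnamed, and sequences are from RefSeq GRCm38.p6. Strands and exon lengths came from a GRCm38 annotation (GENCODE M21) by gene identifier. The comparisons had been planned without a test, as no condition has a second library.

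Log2 ratios used a pseudocount of 1, counts over genes were limited to a mean value of 10 or more, and 33730 genes were at 0 in every library and 26 had no name. Intervals at 95% were exact Clopper-Pearson intervals of the share of both values taken as reads, and those of levels were exact Poisson intervals. They cover counting error only and were tested on simulated data. Members and lists were chosen with earlier results of these data known, and 1 gene is not reported here. Named genes are the members, their relatives, the targets with the largest differences, markers, *Mapkapk2* and the 3 genes most like each member that spans 2-fold. Targets shared between lists are also named. The other target genes named (*Gas6*, *Mrc1*, the C1q genes, *F13a1*, *Cd74* and *Adgre1*) were chosen after their values were seen, as was the count without genes that reached the minimum through 1 side. Alternatives were other scalings, pseudocounts, minimum values, thresholds and reads per unit. Python 3.11.15, numpy 2.4.6, scipy 1.17.1, pandas 2.3.3 and matplotlib 3.10.9 were used.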

Additional observations from a re-analysis of the deposited data

How the results depend on the processing

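No paired analysis was possible because each condition has 1 library, and for the same reason no replicate could be left out. No ratio beyond counting error changed direction under any alternative run. For all genes the number at least 2-fold apart was 1095 and 1214 between the lines (untreated and IL-1α) and 480 and 240 after IL-1α (the control line, then the rescued line). At 1.5-fold these became 2199, 2442, 1122 and 704, with a minimum mean of 50 they were 583, 689, 185 and 42, and with no minimum 5763, 5746, 4696 and 4309. A pseudocount of 5 gave 312 and 130 after IL-1α in the 2 lines. Among the members, a 1.5-fold threshold raised the number higher from 0 to 4 between IL-1α-treated lines and from 0 to 2 after IL-1α in the control line. With 0.5 reads per unit, the number higher beyond counting error fell from 4 to 2 between untreated lines and from 1 to 0 after IL-1α in the rescued line, where more reads per unit or scaling to equal totals raised the number lower from 1 to 2. Scaling to equal *Gapdh* changed the untreated lines from 4 higher and 3 lower to 2 and 5, moved the median of all genes between IL-1α-treated lines from 0.03 to -0.07 on the log2 scale, and there gave 0.51 for *Cebpb*, -0.19 for *Irf5* and 0.14 for *Spi1*. It gave *Irf5* -0.01 after IL-1α in the control line and -0.02 for the difference between its responses (-0.01 and -0.01 with equal totals), all within counting error and of the other sign. *Maf* and *Cebpa* stayed at least 8-fold lower in the control line under each scaling and pseudocount. The untreated difference of *Spi1* was within counting error when scaled by the trimmed mean of M values or by *Gapdh*, and with 0.5 reads per unit. That of *Cebpb* was lost with *Gapdh* scaling and 0.5 reads per unit, its response in the rescued line and both line differences of *Irf5* with 0.5 reads per unit, while *Gapdh* scaling brought *Cebpd* and *Irf8* lower in the untreated control line. Depth limits *Maf*, *Cebpa* and *Irf4* in the line where each was low, at between 19 and 51 normalized counts.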
